A study of Mus musculus with 42 samples.

Results

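RNA polymerase II (Pol II) and histone H3 acetylated at lysine 27 (H3K27ac) were mapped by chromatin immunoprecipitation with sequencing (ChIP-seq) in macrophages that had not been stimulated, and the positions of both signals were compared. The 6 libraries compared, 3 per antibody, were taken by their titles as WT at 0 h from the 42 libraries of a study of the nuclear receptor Nur77 in macrophages given bacterial lipopolysaccharide (LPS). For each antibody a region was kept when at least 2 of its 3 libraries contained it, and regions of different antibodies were called shared when they overlapped by 1 bp or more. This left 41591 Pol II regions and 41530 H3K27ac regions on the mouse build mm10. The question was how far the transcribing enzyme and the acetylation mark occupy the same places in resting cells.

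The cells were bone marrow-derived macrophages (BMDMs) of the C57Bl6/J strain, grown for 7 days in medium conditioned by L929 fibroblasts, from male mice of 6 to 12 weeks that were WT littermates of Nur77-deficient (KO) animals. They were left untreated, whereas other groups of the series received 100 ng/ml LPS for 1 or 18 h. All 6 libraries therefore share genotype, strain, culture and treatment, and differ by antibody. Label and methods name the Pol II antibody by catalogue numbers that do not match, so which form of the enzyme it prefers is not known here. The study's methods call such libraries biological replicates without saying whether they were separate animals or cultures, so p-values measure only the spread between these libraries, which may be technical. A bulk signal also cannot separate a change in the share of cells that carry it from a change in each cell.

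Pol II transcribes all protein-coding genes and many non-coding ones. It gathers near the start of a gene, where it often pauses, moves through the gene body and runs on past the end before it is released. H3K27ac is written by the acetyltransferases p300 and CBP on nucleosomes that flank active promoters and enhancers, the distal elements that raise transcription of a gene. In macrophages such enhancers are selected by PU.1 (Spi1), C/EBP factors and AP-1 factors, and Pol II is found at many of them.

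The marker genes fitted the label of the cells. All 9 macrophage markers had regions of both antibodies within 2500 bp of the start, and their summed tags ranged from 8145 to 8767 for Pol II and from 7262 to 8011 for H3K27ac. A tag here is a sequenced fragment end, given per 10 M tags of the library. The T cell receptor genes Cd3d, Cd3e and Cd3g, the B cell gene Pax5, the neutrophil genes Mpo and S100a9, the erythroid genes Gata1, Epor and Hba-a1 and all 4 stromal markers were at 0 for both antibodies, and the sum over 6 T cell markers was at most 17.2 tags. Low signal stood at the neutrophil genes S100a8 (means of 15.97 Pol II and 42.1 H3K27ac tags) and Elane (4.14 and 35.3) and at the erythroid factor gene Klf1 (16.4 and 49.2), whose part in the results was not tested. The exception with most signal was the B cell marker Ms4a1, with H3K27ac of 282.3, 286.8 and 262.0 tags against Pol II of 28.6, 42.3 and 35.6. The libraries held 26.1 to 36.1 M tags for Pol II and 21.4 to 23.1 M for H3K27ac, and the matched input, sequenced without antibody, 35.06 M. Within an antibody the libraries correlated across regions at r = 0.956 to 0.961 for Pol II and 0.980 to 0.984 for H3K27ac (log2 values; regions are not independent replicates).

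The sequences under a few of these regions are printed as examples and do not compare groups. The histone starts were taken from those that hold the letters TATAAA. Starts of genes called higher in Pol II relative to H3K27ac are shown first, as the 200 bases before the RefSeq start (build GRCm38.p6, which has the coordinates of mm10). They are the histone genes Hist1h4d (chr13:23581368-23581567, plus strand) and Hist1h4k (chr13:21750554-21750753, minus strand), with the TATA box letters TATAAA in capitals, and Spp1 (chr5:104434911-104435110, plus strand), which encodes osteopontin, with the PU.1 motif GAGGAAGT in capitals. The start of Tnrc18 (chr5:142817663-142817862, minus strand) is shown for contrast, because it had the most H3K27ac of any gene outside a satellite-like locus. It has 16 CpG dinucleotides, against 6 in Hist1h4d and 2 in Spp1.
Hist1h4d: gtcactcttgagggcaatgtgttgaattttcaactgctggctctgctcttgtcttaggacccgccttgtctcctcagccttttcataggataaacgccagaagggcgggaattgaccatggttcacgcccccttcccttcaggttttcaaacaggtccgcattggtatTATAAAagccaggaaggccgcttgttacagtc
Hist1h4k: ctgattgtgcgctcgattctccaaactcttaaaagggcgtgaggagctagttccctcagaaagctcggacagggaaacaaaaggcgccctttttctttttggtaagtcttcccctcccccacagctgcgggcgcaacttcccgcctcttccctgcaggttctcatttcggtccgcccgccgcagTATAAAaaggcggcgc
Spp1: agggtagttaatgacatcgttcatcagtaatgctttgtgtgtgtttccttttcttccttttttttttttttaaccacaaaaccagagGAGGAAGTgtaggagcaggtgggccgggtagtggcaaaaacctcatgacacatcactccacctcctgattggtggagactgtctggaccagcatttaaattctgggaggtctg
Tnrc18: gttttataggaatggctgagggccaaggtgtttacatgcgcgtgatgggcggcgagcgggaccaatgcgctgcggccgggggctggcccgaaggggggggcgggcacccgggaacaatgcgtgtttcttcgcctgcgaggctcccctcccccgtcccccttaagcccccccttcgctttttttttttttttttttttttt

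Distal elements are shown as 120 bases around a motif, on the plus strand of mm10. The stretches near Dcstamp (chr15:39609360-39609479) and Resf1 (chr6:149356095-149356214) come from the strongest regions that had H3K27ac and no Pol II. Those near Ccr2 (chr9:124068504-124068623) and Atf3 (chr1:191272797-191272916) come from the strongest intergenic H3K27ac regions that Pol II shared. Capitals mark the AP-1 motif TGANTCA, the PU.1 motif GAGGAAGT and the C/EBP motif TTGCNNAA on either strand, and in the Ccr2 element the PU.1 and AP-1 letters overlap. In the Atf3 element the C/EBP and PU.1 letters are joined, both on the minus strand. Each stretch was placed around the AP-1 or PU.1 motif with the most kinds of motif near it. The letters shown were thus fixed by that choice.
Dcstamp distal, H3K27ac without Pol II: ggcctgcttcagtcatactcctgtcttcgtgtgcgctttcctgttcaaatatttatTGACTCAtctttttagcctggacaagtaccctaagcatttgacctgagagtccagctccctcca
Resf1 distal, H3K27ac without Pol II: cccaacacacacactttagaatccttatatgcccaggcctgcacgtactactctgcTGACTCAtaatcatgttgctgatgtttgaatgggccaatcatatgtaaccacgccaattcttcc
Ccr2 distal, shared: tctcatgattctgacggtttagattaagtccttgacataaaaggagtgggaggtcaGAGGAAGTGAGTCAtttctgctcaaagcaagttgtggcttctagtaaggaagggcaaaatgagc
Atf3 distal, shared: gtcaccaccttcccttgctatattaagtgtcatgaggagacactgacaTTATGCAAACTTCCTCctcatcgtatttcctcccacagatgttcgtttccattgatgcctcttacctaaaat

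Among the regions with most tags there were also loci of microRNAs (miRNAs), short RNAs that repress messages by pairing through their seed. The genes of miR-221, miR-222 and miR-21a lie inside regions described further on. That of miR-142a lies in a Pol II region at chr11:87735716-87765981 with 16076 Pol II and 4421 H3K27ac tags. The mature sequences are given with their seeds (bases 2 to 8) in capitals. miR-221 and miR-222 carry the same seed.
mmu-miR-221-3p: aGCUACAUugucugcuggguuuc
mmu-miR-222-3p: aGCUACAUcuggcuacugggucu
mmu-miR-21a-5p: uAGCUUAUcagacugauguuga
mmu-miR-142a-3p: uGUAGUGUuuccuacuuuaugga

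Pol II covered more of the genome than H3K27ac, and at a lower density. The 3 Pol II libraries listed 56286, 57231 and 57861 regions, and the 3 H3K27ac libraries 44623, 44357 and 42435. They covered 180.4, 196.6 and 187.3 Mb with Pol II and 114.4, 110.8 and 105.2 Mb with H3K27ac. The mean density inside regions was 34.2, 36.4 and 38.0 tags per kb for Pol II and 72.8, 76.2 and 79.0 for H3K27ac, while the share of a library's tags that fell in regions was 61.6%, 71.5% and 71.1% against 83.3%, 84.5% and 83.1%. Libraries of the antibodies did not overlap in any of these measures. The typical region of a library was narrower for Pol II (median 1216 ± 19.9 bp, SD, n = 3) than for H3K27ac (1767 ± 14.7 bp, SD, n = 3), whereas the medians of the regions found in at least 2 libraries were 2111 and 2067 bp. Each difference had an exact two-sided permutation p of 0.1, the smallest that 3 against 3 libraries can give, and an adjusted p of 0.115 over 15 such tests.

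**Figure D1:**
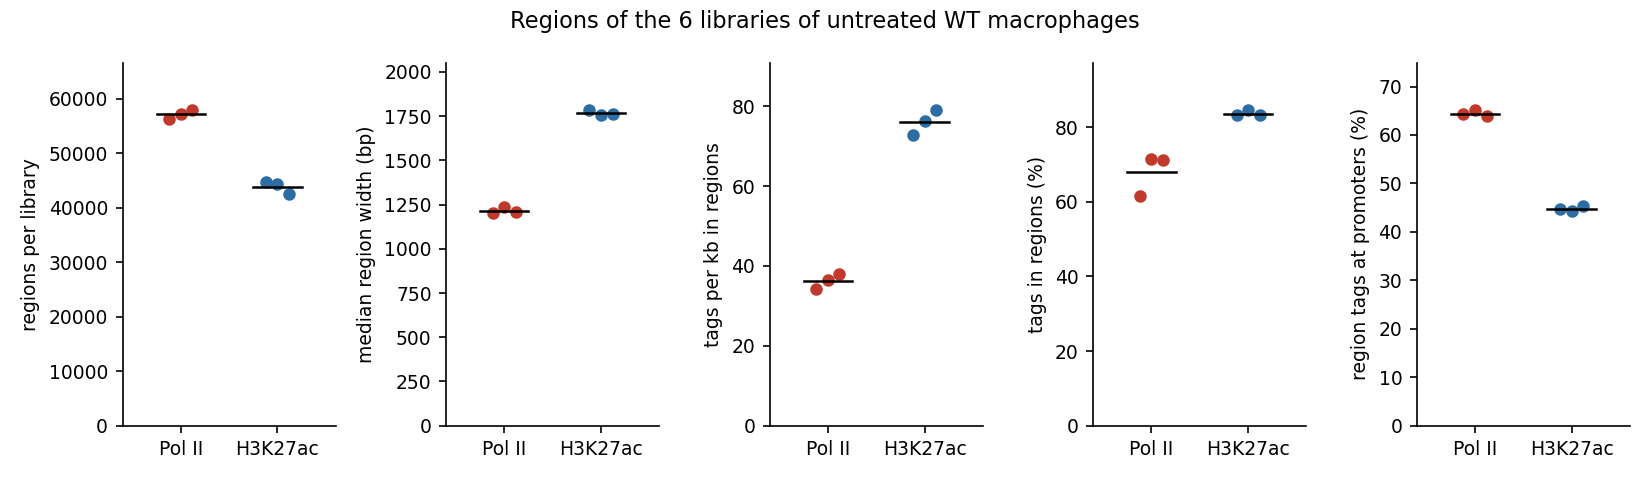
Each point is 1 library of untreated WT macrophages (Pol II in red, H3K27ac in blue, n = 3 each) and the bar is the mean; the panels give regions per library, median region width in bp, mean tags per kb in regions, share of tags in regions and share of region tags at promoters, the latter both in percent. The antibodies do not overlap in any panel: Pol II has more regions (56286 to 57861 against 42435 to 44623) at a lower density. A larger share of its tags is in regions that reach a promoter (63.9% to 65.1% against 44.3% to 45.3%).

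Most of the additional Pol II regions were weak. Of the 41591 Pol II regions, 17280 had 5 to 10 tags per kb and 7801 had 20 to 40. The regions of the input library had a median density of 11.9 tags per kb, and 0.108% of them reached 20, so the weakest Pol II regions had densities that regions without any antibody also reached. When regions of at least 20 tags per kb were kept in each library, the mean difference between Pol II and H3K27ac turned from 13321 to -14064 regions per library, and that in median width from -551 to 1160 bp. The order of the antibodies in number and width within libraries thus turned without the weak regions, whereas the larger covered length and the lower mean density of Pol II kept their direction.

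Overlap rose steeply with density. Over all regions, 59.1% of Pol II regions and 68.6% of H3K27ac regions were shared, over 84.8 Mb, which is 39.2% of the bases in Pol II regions, 69.2% of those in H3K27ac regions and 33.4% of the bases in either. Of the Pol II regions with 5 to 10 tags per kb 31.2% overlapped H3K27ac, of those with 10 to 15 tags 72.5%, of those with 20 to 40 tags 98.2%, and of the 586 regions with 80 or more 99.8%. For H3K27ac the same bins held 34.2%, 34.9%, 74.5% and 100%. The share of Pol II regions that overlapped an input region rose as well, from 28.3% at 5 to 10 tags per kb to 94.7% at 80 or more, and their median width from 1475 to 13426 bp, and the part of these in the overlap was not tested. Without regions that overlap the input 35.1% of Pol II and 45.8% of H3K27ac regions were shared. A dense Pol II region thus almost always carried H3K27ac, and H3K27ac regions reached a similar share from 40 tags per kb on (98.5%). In the single libraries, 47.9%, 47.4% and 46.7% of Pol II regions and 66.8%, 67.4% and 69.6% of H3K27ac regions met the other antibody (exact permutation p = 0.1, adjusted p = 0.115). With regions of at least 20 tags per kb the order turned, and the Pol II share was 39.7 percentage points above that of H3K27ac.

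**Figure D2:**
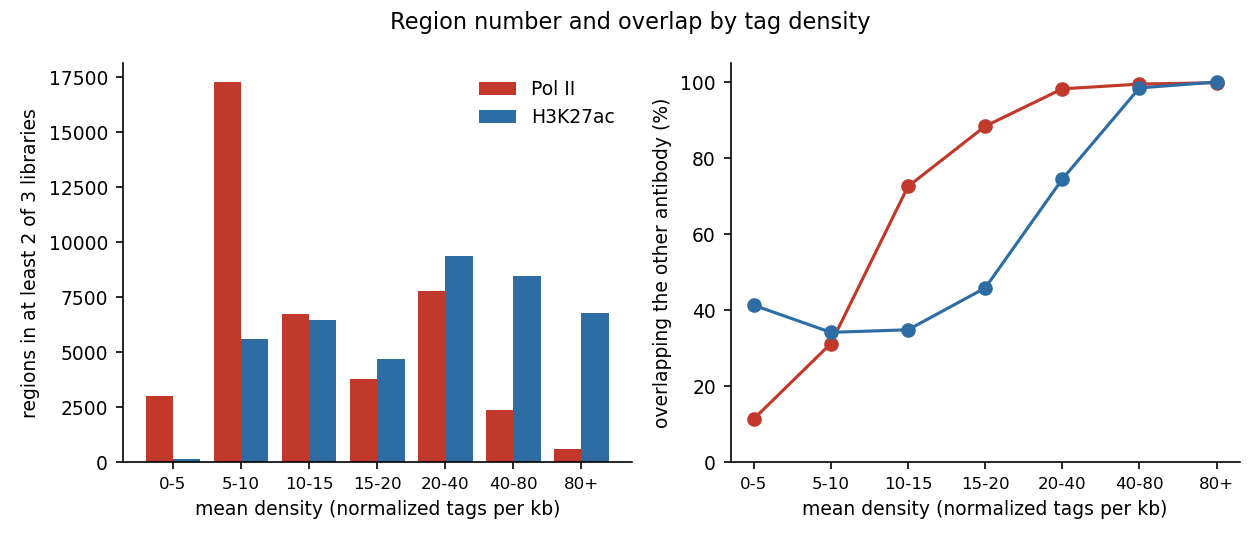
Regions found in at least 2 of 3 libraries, by their mean density in normalized tags per kb (Pol II in red, H3K27ac in blue); the left panel gives the number of regions and the right panel the percentage that overlaps a region of the other antibody. Pol II has its highest count at 5 to 10 tags per kb (17280 regions, 31.2% shared) and H3K27ac at 20 to 40 (9387 regions, 74.5% shared).

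A larger share of the tags lay in very wide regions for Pol II than for H3K27ac. Only 462 Pol II regions were wider than 50 kb, 1.11% of all, but they held 22.9% of the tags in regions, and 98.7% of them overlapped H3K27ac. For H3K27ac 14 regions passed that width, with 1.37% of the tags. The widest Pol II region spanned 400.5 kb of Cdk14, which encodes a cyclin-dependent kinase (chr5:4987265-5387807), with 18.1, 21.0 and 21.5 tags per kb in the 3 libraries, and H3K27ac regions covered 8.51% of it. Next came a region of 322.8 kb at Dock2 and Fam196b, of which 1.90% carried H3K27ac. Dock2 encodes an activator of the small GTPase Rac in leukocytes. The region over Tns3, a tensin gene of focal adhesions, was 242.7 kb wide and 47.6% covered by H3K27ac, and that over the lineage factor gene Runx1 was 229.1 kb wide and 39.2% covered. Asap1, Macf1, Peak1, Srgap2, Dock8 and Gnaq made up the rest of the 10 widest, between 221.7 and 241.8 kb. The 10 widest Pol II regions thus ran along long genes, with H3K27ac on 1.90% to 47.6% of their length.

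The widest H3K27ac regions were several-fold shorter and almost wholly inside Pol II regions. The widest, 75.7 kb, lay at chr1:191221118-191296785, 3079 bp from the annotated start of Atf3, which is itself 34706 bp from the RefSeq start of this AP-1 family gene, and had 9146, 9381 and 9347 H3K27ac tags. Others lay at Bcl2l1, a survival gene (66.1 kb), at Apbb1ip, an integrin regulator (64.6 kb), at Plekho2 (62.5 kb), at Ptafr and Eya3 (60.5 kb) and over Vmp1 with the miRNA gene Mir21a (63.1 kb, 11278 H3K27ac and 15554 Pol II tags). Pol II regions covered 77.4% to 100% of each of the 10.

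Regions that reached a promoter held a larger share of the tags of Pol II than of H3K27ac. The order in the share of regions depended on which regions were counted. A region within 1000 bp of the start of a protein-coding gene was counted as promoter, and such windows make up 1.51% of the genome. All tags of such a region were counted, also those far along a gene, so these shares do not measure signal confined to starts. Among regions wider than 50 kb, 75.97% for Pol II and 71.43% for H3K27ac were promoter regions. Of the Pol II regions 21.7% were at promoters, 59.2% elsewhere in genes and 19.2% intergenic, and of the H3K27ac regions 23.2%, 44.8% and 32.0%. In tags, promoter regions took 69.3% of Pol II and 46.0% of H3K27ac, and intergenic regions 8.25% and 22.8%. Promoter regions had a median width of 5649 bp for Pol II and 2777 bp for H3K27ac. In the libraries the promoter share of tags was 64.3%, 65.1% and 63.9% for Pol II and 44.7%, 44.3% and 45.3% for H3K27ac, and the promoter share of regions 15.97% to 16.37% against 21.69% to 22.58%. Both differences had an exact permutation p of 0.1 (adjusted p = 0.115) with no overlap between antibodies. The share of regions turned with regions of at least 20 tags per kb (Pol II 24.4 points higher), and the share of tags turned when regions that overlapped the input were left out (Pol II lower, a difference of -7.82 points). An input region was overlapped by 62.0% of Pol II and 58.3% of H3K27ac promoter regions, and by 44.4% and 51.9% of all regions.

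At the level of genes, the signals were seldom found apart at promoters. Of 21884 protein-coding genes, 10634 (48.6%) had regions of both antibodies within 1000 bp of the start, 610 (2.79%) had Pol II alone, 483 (2.21%) had H3K27ac alone and 10157 (46.4%) had neither. Of the promoter regions, 96.3% of Pol II and 95.7% of H3K27ac were shared. The regions that were not shared lay elsewhere: 88.1% of the 16994 Pol II regions without H3K27ac were inside genes away from the start, and 53.0% of the 13060 H3K27ac regions without Pol II were intergenic. They were weak as well, with 6.62% of the Pol II tags and 3.87% of the H3K27ac tags.

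The strongest Pol II regions without H3K27ac were all stretches of gene bodies. The region with most tags lay in Cd36, the scavenger receptor gene (chr5:17769345-17800166), with 4372, 5190 and 5184 Pol II tags and no H3K27ac region over its 30.8 kb. A region of 89.4 kb in Asph followed with 2935 tags on average. The F4/80 gene Adgre1 held 2 such regions of 59.0 and 51.7 kb with 2195 and 1734 tags, and the cholesterol exporter gene Abca1 held 1 of 30.4 kb with 1682 tags. Alcam, Lair1, Tnfrsf11a, Appl2 with Washc4, and Kdm7a completed the 10, with 714.3 to 1344 tags. Their input densities were between 0.568 and 4.09 tags per kb, against 13.4 to 159.5 for Pol II.

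H3K27ac regions without Pol II were weaker. The region with most tags lay inside Rims2, 133243 bp from the start of Dcstamp, a gene of macrophage fusion (chr15:39605628-39612687), with 304.7, 308.7 and 292.0 H3K27ac tags. Regions in the intergenic space nearest to Cd44 (275.8 tags), Stt3b (243.6) and Resf1 (231.5) and inside Col15a1 (260.0) came next, and the 10 strongest ranged from 200.6 to 301.8 tags. Of these 10 stretches 9 held the AP-1 letters TGANTCA, between 1 and 8 copies each, in 3256 to 11502 bp, and 2 held the PU.1 letters. The C/EBP letters were in all 10, with 1 to 4 copies each. These counts were not set against other stretches of such width.

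Across all distal regions, AP-1 and PU.1 letters were more frequent where H3K27ac was present. The motifs were searched on both strands in 1000 bp around each region's midpoint, so these are shares of windows of equal length. TGANTCA was in 42.5% of distal H3K27ac regions without Pol II, in 37.2% of those with Pol II, in 25.4% of distal Pol II regions without H3K27ac, and in 34.5% of all H3K27ac and 29.1% of all Pol II regions. GAGGAAGT was in 17.0%, 15.2% and 5.94% of the same distal groups, against 14.2% and 9.68% of all regions, and TTGCNNAA in 41.0%, 37.8% and 34.4%, against 36.8% and 35.2%. The distal groups were alike in GC content (medians of 44.1%, 45.3% and 42.4%), and H3K27ac promoter regions stood apart with 55.9% GC and an observed over expected CpG ratio of 0.66. A match of letters is a description and does not show that a factor was bound.

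Outside coding genes, the regions with most Pol II included several non-coding RNA loci, although 76.77% of the intergenic Pol II regions (77.67% for H3K27ac) overlapped no annotated gene. Regions that overlap long intergenic non-coding RNA genes were 12.9% of intergenic Pol II regions with 24.13% of the tags, and 13.11% of H3K27ac regions with 19.87%. The region with most intergenic Pol II covered Malat1, the gene of an abundant nuclear long non-coding RNA (chr19:5792322-5809130), with 11180, 11907 and 11666 tags, 689.2 per kb. Neat1, the paraspeckle RNA gene next to it, lay in the region with most Pol II tags of the genome (32178, chr19:5809534-5860742). The second intergenic region held Mir221 and Mir222 (chrX:19138566-19173825), with 9936, 11002 and 10996 Pol II tags and 3437 H3K27ac tags, and the seventh held Mir29a, Mir29b-1 and Lncpint with 5624 Pol II and 6182 H3K27ac tags. Regions of 4.83 to 7.66 kb with small non-coding RNA genes near Rdm1, Sirt4 and Kif2c had 657.6 to 973.5 Pol II tags per kb and only 267.8 to 485.4 H3K27ac tags in all. Regions that overlap small nuclear RNA genes were 0.414% of intergenic Pol II regions and took 5.526% of the intergenic Pol II tags, while for H3K27ac such regions were 0.301% and took 1.145%. The fourth region, 626 bp on chromosome 12, had an input density of 26274 tags per kb, above that of Pol II (11151).

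The 10 strongest intergenic H3K27ac regions were 21.14 to 75.67 kb wide. The one with most tags (10203) covered the non-coding gene A230028O05Rik, 218651 bp from the start of Tprg. The next lay 25386 bp from Ccr2, the monocyte receptor for the chemokine CCL2 (chr9:124049264-124076564), with 9047, 9873 and 9166 H3K27ac tags and 2816 Pol II tags, and a further one 23101 bp from Ccr1 had 5675 and 4405. Elements near Atf3, Tomm20, Atp6v1b2, Clec2d, Zfp36l2, Metrnl and Ptchd3 completed the 10, with 4939 to 9291 H3K27ac tags. Each of the 10 held between 4 and 29 copies of TGANTCA in 21143 to 75668 bp, which was not set against other stretches of such width. Pol II regions covered 71.4% to 100% of each. All 10 thus carried Pol II.

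The genes with the highest Pol II density were mostly short genes. Density was taken as tags per kb from 500 bp before the start to 500 bp past the end, so that genes of different lengths can be compared. Fth1, the ferritin heavy chain, had 1129, 1116 and 1092 tags per kb and Actb, β-actin, had 1096, 1130 and 1063, and these values overlap. Rgs1, a regulator of G protein signalling, had 1110, 1064 and 1053. Spp1, osteopontin, came next with 997.7, 930.6 and 842.5, followed by Lyz2, lysozyme, with 765.3, 783.0 and 761.2, Tmsb4x, the actin-sequestering thymosin, with 839.7, 692.6 and 746.8, and Rgs2 with 668.0, 710.1 and 677.8. Spp1 was above Lyz2 and Tmsb4x in every library, while Lyz2 and Tmsb4x overlapped. The list also held the satellite-like gene models Gm10722 (1189 tags per kb) and Gm10801 (668.0), whose starts had 8033 and 59701 tags in the input.

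The genes with most H3K27ac were ranked by tags at the start, a measure other than density over the gene, and 1 gene was in both lists of 10. All starts were given the same window of 2500 bp to each side. Tnrc18 had 2134, 2336 and 2374 tags and 2610001J05Rik 2089, 2390 and 2124, and these ranges overlap. The genes below them included Zc3h4, a factor that restrains non-coding transcription (1909 on average), Ppp1r10, a phosphatase subunit, and its divergent neighbour Mrps18b, a mitochondrial ribosomal protein gene (1890 and 1870), Tomt (1759) and Zfp36l2, which encodes an RNA-binding protein that promotes decay of messages (1737). Gm10800, first by value with 8488 tags, had 61516 input tags. Among all coding genes, 24 of the 100 highest and 527 of the 1000 highest starts were common to the antibodies. Over the 11010 genes tested below, the start values correlated at Spearman's rho = 0.81. This is a description across genes that share libraries and are not replicates.

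Pol II was the more uneven signal. The top 1% of the gene starts tested held 13.7% of the Pol II tags at these starts and 5.28% of the H3K27ac tags. The median start had 112.1 Pol II tags (quartiles 64.2 and 172.2) and 212.7 H3K27ac tags (102.7 and 378.6).

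To find genes whose balance of Pol II and H3K27ac departed from that of the typical gene, both were compared at 11010 starts that had a region of each antibody in at least 2 libraries. The antibodies have no common scale: before centring the median gene had a Pol II value 0.85 lower than its H3K27ac value on the log2(tags + 10) scale. Each library was therefore centred on its median, and differences are relative to the median gene. Pol II was relatively higher at 1053 genes (9.56% of those tested) and lower at 656 (5.96%), 15.5% in all, at a limma adjusted p under 0.05 and a log2 difference over 1. All but 1 of the called genes had values of the antibodies that did not overlap. Without centring the split was 318 higher and 4486 lower, and with quantile normalization 806 and 774. List counts given below for these settings stand against these totals, not against 9.56% and 5.96%.

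Genes called higher were shorter (median length 8361 bp) than those called lower (33698 bp) or not called (23132 bp), and 48.6% of them had another coding gene within the start window, against 27.6% and 35.7%. This matters for the reading of single genes, because a file lists 1 value per region and neighbours inside a region share it. Ifitm10 had the largest difference (log2 6.68), with Pol II of 2180, 2323 and 2296 tags and H3K27ac of 32.2, 30.0 and 29.5, but its Pol II values are those of the lysosomal protease gene Ctsd beside it. Sox15, Ddah2 and Kcnk7 (log2 5.00, 4.92 and 4.84) likewise had Fxr2 and Mpdu1, Clic1 and Map3k11 in their windows. The annotated start of Parp16 (log2 5.21, Pol II 2743, 2944 and 3016 tags) lay 19337 bp from its RefSeq start. C9, Fam71a, Pdpk1 and Fads3 had no coding neighbour in the window, and C9, a complement gene, had Pol II of 305.4, 392.7 and 446.6 tags with H3K27ac at 4.92, 0.42 and 0. From 500 bp before its start to past its end, however, C9 had a mean of 0.96 Pol II tags per kb. Pol II regions covered 1.59% of its body. Its window value thus came mostly from before the gene, and the source of that signal was not tested.

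At the other end, genes called lower had more H3K27ac at the start (median 480.2 tags, against 214.8 in genes not called) and about as much Pol II (103.7 against 110.7). Sirpb1a, a receptor gene of myeloid cells, had Pol II of 72.8, 69.3 and 79.5 tags and H3K27ac of 718.2, 753.3 and 773.1 (log2 -2.31). Klra2, a lectin receptor gene, had Pol II of 14.9, 1.84 and 0 and H3K27ac of 146.0, 159.3 and 125.9 (log2 -2.55). Rpgrip1, Trcg1 and Pkd1l2 had differences between -2.84 and -2.38. For Brd3, which encodes a reader of acetylated histones and had the lowest value (log2 -2.98), the annotated start used lay 32264 bp from the RefSeq start, so the value is not that of the RefSeq promoter. Input regions overlapped 85.5% of the starts called lower, 49.1% of those called higher and 62.7% of the rest, and the part of this in the calls was not tested.

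**Figure D3:**
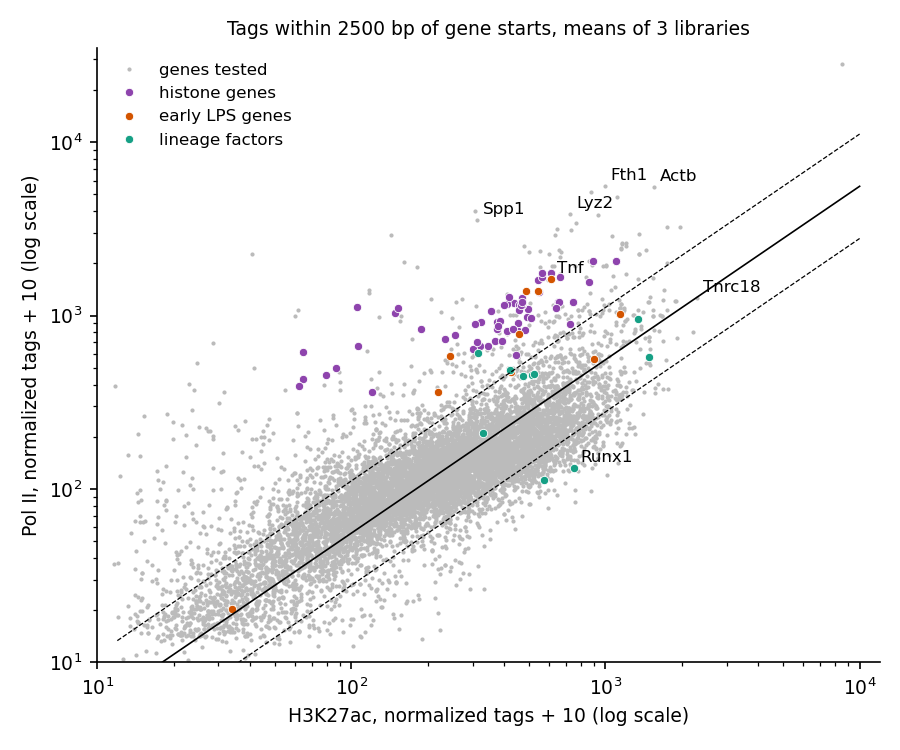
Mean Pol II against mean H3K27ac within 2500 bp of 11010 gene starts (normalized tags + 10, log axes, 3 libraries each); the solid line is the median gene and the dashed lines are log2 differences of 1 and -1 from it. The histone genes (purple) and most early LPS genes (orange) lie above the upper line, whereas Runx1, among the lineage factors (green), lies below the lower line.

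The replication-dependent histone genes departed as a whole. These genes supply histones during DNA synthesis and give messages without a poly(A) tail. All 64 that could be tested of 67 were higher in Pol II relative to H3K27ac, against 9.56% of all genes tested, with a median log2 difference of 2.16 (1.17 to 4.28) against 0.03 over all genes. The median member had 955.7 Pol II tags and 423.3 H3K27ac tags at the start. At Hist1h4d, whose promoter is printed above, Pol II was 1133, 1328 and 1326 and H3K27ac 387.0, 424.3 and 411.9 tags (log2 2.48 ± 0.06, SE). At Hist1h1t, the member with the largest difference, Pol II was 1039, 1093 and 1182 and H3K27ac 85.2, 92.8 and 108.8 (log2 4.28), and at Hist1h1c, the smallest, Pol II was 850.3, 904.0 and 894.2 and H3K27ac 698.2, 765.9 and 685.6 (log2 1.17). Of the 3 that were not tested, Hist1h2aa and Hist1h2ba were without a region of either antibody and Hist3h2ba had Pol II alone.

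Most of these genes sit in clusters, 52 of the 64 on chromosome 13 and 10 on chromosome 3, and neighbours share windows and regions, so the 64 values are not independent. All 5 with no other start within 5000 bp were still called, as were all 6 that could be tested without input regions. The count was 43 of 64 without centring, and 61 with quantile normalization. The letters TATAAA stood in the 50 bases before 12 of 67 histone starts (17.9%), against 3.25% of all coding starts and 1.18% of the starts tested. Of the 58 histone genes matched to a RefSeq promoter, 15 (25.9%) had them, Hist1h4d at position -32 and Hist1h4k at -16 from the start.

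Genes of the early LPS response stood high in Pol II before any LPS. Of 10 listed genes, 7 were called higher by limma, against 9.56% of all genes tested, and none lower, also at an unadjusted p under 0.05, with a median log2 difference of 1.75. Tnf, the cytokine gene, had Pol II of 1612, 1661 and 1581 and H3K27ac of 524.0, 564.2 and 708.0 tags (log2 2.30 ± 0.11, SE, limma adjusted p = 6.0e-07). The chemokine genes Ccl3 and Ccl4 shared a Pol II value of 1370 tags from the same region, with H3K27ac of 531.2 and 478.7 (log2 2.25 and 2.38). Egr1, an immediate early factor, had Pol II of 566.7, 575.5 and 574.1 and H3K27ac of 242.2, 219.4 and 241.2 (log2 2.13), and the NF-κB inhibitor gene Nfkbia had 731.5, 795.4 and 784.7 against 520.6, 386.7 and 427.9 (log2 1.66). At the chemokine gene Cxcl2 (log2 1.83) H3K27ac was spread over 128.9, 396.1 and 103.8 tags, and the Pol II values of 342.5, 370.1 and 344.9 lay within that range before centring. Tnfaip3 (log2 1.02) was just past the threshold and fell short of it without Pol II replicate 2 (0.96) or without H3K27ac replicate 3 (0.997). Ier2, Zfp36 and Ptgs2 were not called, and Ptgs2 was low in both signals, with 10.4 Pol II and 24.0 H3K27ac tags. With genes that have no other start within 5000 bp 4 of 8 were called, without centring 4 of 10, and without input regions the 1 gene that could be tested was not called (log2 -0.13).

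Of 10 late LPS genes 7 had no Pol II region in at least 2 libraries at the start, where 11635 of 21884 coding genes had one. The other 3 could be tested, and 1 of them was called higher (9.56% of all genes tested were). Acod1, the itaconate enzyme gene, was past the threshold at low values (Pol II 36.6, 39.5 and 44.1 and H3K27ac 29.1, 44.7 and 32.5 tags, log2 1.02), and not when H3K27ac replicate 1 (0.93) or 3 (0.97) was left out. Il6 was listed at 0 for Pol II in all 3 libraries with 20.2 H3K27ac tags on average, Ifnb1 and Il12b were also at 0 for Pol II with 6.42 and 1.95, and Lcn2 and Nos2 were at 0 for both. Il1b had 41.1 and 77.3 and Il10 71.9 and 209.0, with log2 differences of 0.10 and -0.55. The median Pol II at the start was 671.3 tags in the early and 0.41 in the late list, and the median H3K27ac 461.9 and 18.3.

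Of the AP-1 genes, whose products bind TGANTCA, Fos and Jun were higher in Pol II, 2 of 11 tested against 9.56% of all genes. Fos had Pol II of 1713, 1815 and 1670 and H3K27ac of 661.5, 633.7 and 669.3 tags (log2 2.26), and Jun had 1082, 1164 and 1223 against 1019, 1059 and 994.8 (log2 1.04). The call of Jun was lost with a pseudocount of 50, with quantile normalization, without centring and when genes with a region of either antibody were tested. Junb and Jund were high in both signals and not called, with 991.5 and 490.0 Pol II and 1272 and 534.5 H3K27ac tags, and Fosb, Fosl1, Fosl2, Batf, Batf2, Batf3 and Jdp2 had log2 differences between -0.63 and 0.48. Atf3 was not tested, because no Pol II region was listed at the annotated start used (H3K27ac 43.0, 32.8 and 24.8 tags), which lies 34706 bp from its RefSeq start. None of the 11 tested was called lower by limma, and 3 were lower at an unadjusted p under 0.05, while without centring 1 was higher and 4 were lower.

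Of 10 macrophage lineage factors, 2 were higher and 2 lower, against 9.56% and 5.96% of all genes tested, and without centring none was higher and 3 were lower. Cebpb was among the higher ones, with Pol II of 408.8, 492.4 and 530.7 and H3K27ac of 394.8, 434.6 and 402.0 tags (log2 1.08). Runx1 went the other way, with Pol II of 112.6, 127.1 and 126.2 and H3K27ac of 694.9, 768.3 and 765.9 (log2 -1.64), and so did Tfec, with 90.5, 104.9 and 113.4 against 572.9, 565.6 and 551.5 (log2 -1.48). The start of Runx1 lay in the 229.1 kb Pol II region described above, and H3K27ac regions covered 39.2% of that stretch. The start value came from the regions listed in each library, each with its tags spread evenly over its width. Spi1, which encodes PU.1, had Pol II of 471.2, 506.9 and 721.8 and H3K27ac of 1330, 1506 and 1587 (log2 -0.51, not called), and Cebpa, Irf5, Irf8, Klf4 and Mitf had differences between 0.22 and 0.79. The Tfec call was not kept with a window of 500 bp (log2 -0.99).

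Surface and lysosomal genes were mixed. The shares of all genes tested were 9.56% higher and 5.96% lower. Of 12 macrophage surface and marker genes 4 were higher and 1 lower, but 1 and 2 with quantile normalization and 1 and 3 without centring. Lyz2 had Pol II of 3827, 3916 and 3807 and H3K27ac of 668.2, 692.4 and 787.7 tags (log2 3.29), the complement receptor gene C5ar1 had a difference of 1.49, the LPS co-receptor gene Cd14 of 1.34 and the growth factor receptor gene Csf1r of 1.05. The integrin gene Itgam was lower (log2 -1.01), a call lost without Pol II replicate 2 (-0.88) or H3K27ac replicate 2 (-0.91). Tlr4, the LPS receptor gene, had 277.2 Pol II and 977.8 H3K27ac tags (log2 -0.91, not called). Of 15 lysosome genes 4 were higher, the protease genes Ctsl (log2 3.09), Ctsb (2.01) and Ctsd (1.62) and the saposin precursor gene Psap (1.40), and the membrane protein gene Cd63 was lower (-1.17). Ctsl had Pol II of 1156, 1176 and 1218 and H3K27ac of 213.9, 246.3 and 281.0 tags. With quantile normalization 2 lysosome genes were higher and 2 lower, and without centring 2 and 5. Among the 12 with a start within 500 bp of a RefSeq start, 3 were higher and none was lower. The medians of both lists were near that of all genes, 0.24 and 0.16.

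Among 12 actin cytoskeleton genes the 4 called, all higher (9.56% of all genes tested were), encode actins and thymosins: Tmsb4x (log2 2.91), Actb (2.70), Tmsb10 (2.25) and Actg1 (1.84). Actb had Pol II of 5481, 5649 and 5314 and H3K27ac of 1487, 1530 and 1602 tags, but with quantile normalization its difference was 0.80 and below the threshold. With that normalization 2 of the 12 were higher and 1 lower, and their median turned from 0.63 to -0.13, and without centring 3 were higher and 4 lower. Of 79 ribosomal protein genes 14 were called higher by limma and none lower (median 0.51; 10 were lower at an unadjusted p under 0.05), led by Rps2 with Pol II of 505.5, 535.2 and 619.5 and H3K27ac of 168.8, 265.0 and 256.1 (log2 2.12). The count was 4 with a pseudocount of 50 and 6 with a window of 500 bp, and without centring 1 was higher and 12 were lower. The other ribosomal protein genes called had differences of 1.02 to 1.44. Glycolysis genes were centred on the median gene (0.00), with Gapdh just above the threshold (1.03) and Gpi1 just below the lower one (-1.02), and both lost their call when single libraries were left out (Gapdh at 0.96 to 0.99 without Pol II replicate 1 or H3K27ac replicate 1 or 2, Gpi1 at -0.98 and -0.99 without Pol II replicate 2 or H3K27ac replicate 1). Of 10 interferon-response genes, which LPS induces through type I interferon, only the chemokine gene Cxcl10 was called, a share near the 9.56% of all genes (log2 1.80, with Pol II of 44.3, 49.2 and 51.2 and H3K27ac of 23.6, 16.4 and 22.0 tags). Without centring none of the interferon-response genes was higher and 3 were lower, and of the glycolysis genes none and 4. None of 10 liver X receptor (LXR) and cholesterol efflux genes was called by limma, although 7 had an unadjusted and an adjusted p under 0.05 with smaller differences (2 higher and 5 lower). Their median of -0.26 was the lowest of the 12 lists in the main setting. With quantile normalization the lysosome median was lower (-0.263 against -0.228). With a region of either antibody the late LPS median was lower (-0.495 against -0.349). Over all genes tested 5.96% were lower. Without centring 6 of the 10 LXR and efflux genes were lower, as were 4486 of all 11010 genes tested. The efflux transporter gene Abcg1 had the lowest difference of the list (-0.94) and the phospholipid enzyme gene Lpcat3 -0.84, while Abca1 and Apoe had differences of 0.02 and 0.70.

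**Figure D4:**
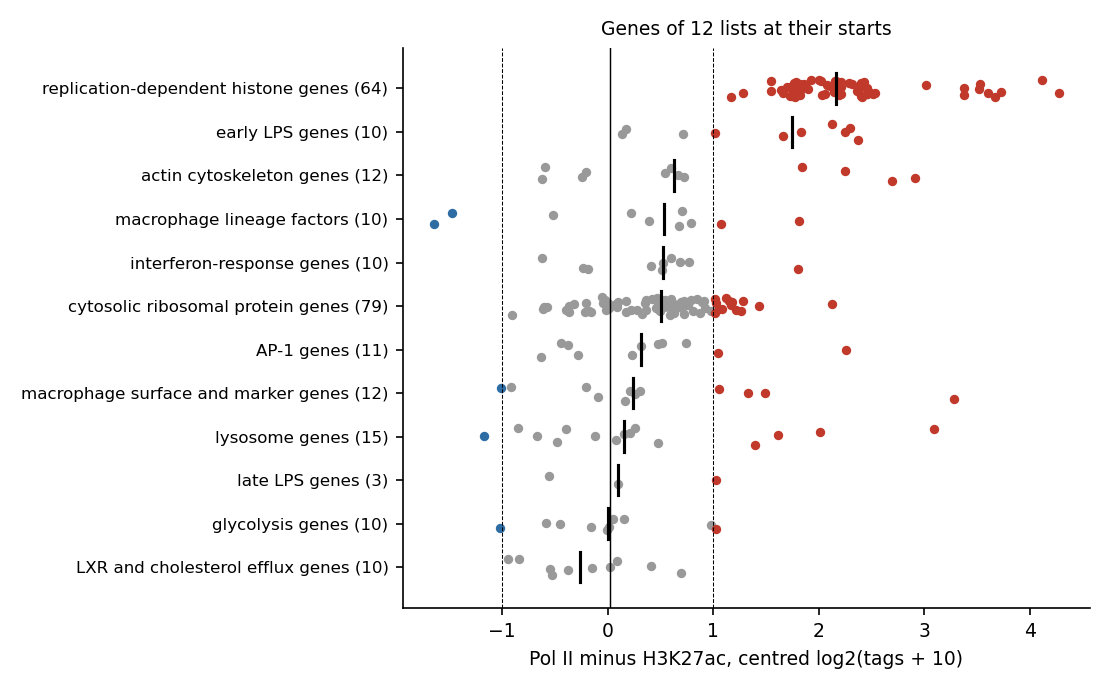
Each point is 1 gene, placed by the difference between Pol II and H3K27ac at its start (centred log2(tags + 10), 3 libraries each); red and blue points were called higher and lower by limma, grey ones were not called, the black bar is the list's median, and the numbers in brackets are the genes tested. All 64 histone genes lie to the right of the upper threshold of 1, and the LXR genes have the lowest median (-0.26).

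Starts with regions of 1 signal and no listed region of the other were few. No Pol II region in any library was found at 395 starts that had H3K27ac in at least 2. Taar8b, an olfactory trace amine receptor gene, had the most, with 239.7, 234.1 and 218.3 H3K27ac tags, and Nupr1, a stress gene, had 114.5, 106.0 and 117.3 at a start that lies 5391 bp from the RefSeq one. The reverse held at 543 starts. Spata25 led these with 752.5, 736.6 and 803.8 Pol II tags, and of the 10 with most Pol II 8 had another coding gene in the window, among them Mybpc3 next to Spi1, Gramd2 next to Pkm and Ttll3 next to Arpc4. The Pol II tags in these 8 windows cannot be told apart from those of the neighbour.

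Along genes, Pol II extended where H3K27ac did not. In 10310 genes of at least 3000 bp with both signals at the start, the mean density was 40.1 ± 2.66 Pol II tags per kb within 500 bp of the start, 19.6 ± 1.47 in the gene body and 23.1 ± 1.74 in the 500 to 3000 bp past the end (SD over 3 libraries). For H3K27ac it was 83.9 ± 2.52, 15.6 ± 0.13 and 12.3 ± 0.06. On these means the body reached 48.8% ± 1.16 of the start for Pol II and 18.6% ± 0.41 for H3K27ac, and the space past the end 57.6% ± 1.06 and 14.7% ± 0.40 of it. Among 3161 genes of at least 10000 bp with no coding neighbour within 5000 bp, the body reached 34.7% ± 1.13 and 13.8% ± 0.49 and the space past the end 40.01% ± 1.32 and 6.65% ± 0.32. The median gene was lower in the body than these means, with 32.6 Pol II tags per kb at the start and 7.31 in the body, and 75.9 and 5.92 for H3K27ac. In the 3161 lone genes the median body density was 4.05 for Pol II and 4.40 for H3K27ac. The values of a region are spread evenly over it, so that a Pol II peak at the start inside a wide region counts as body signal too.

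Pol II regions covered a median of 42.1% of the gene body and H3K27ac regions 11.2%. The whole body, to within 0.1% of its length, lay inside Pol II regions for 2200 genes (21.3%) and inside H3K27ac regions for 172 (1.67%). In the 3161 lone genes the medians were 24.7% and 9.45%, and the whole body was covered in 14.2% and 0.348%. Adgre1 showed the contrast, with 93.2% of its body in Pol II and 3.90% in H3K27ac regions, as did the interferon-response genes Mx1 (100% and 8.47%) and Cxcl10 (100% and 2.00%). Cd14, Lyz2, Tnf and Fos, which are short genes, lay wholly in regions of both.

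**Figure D5:**
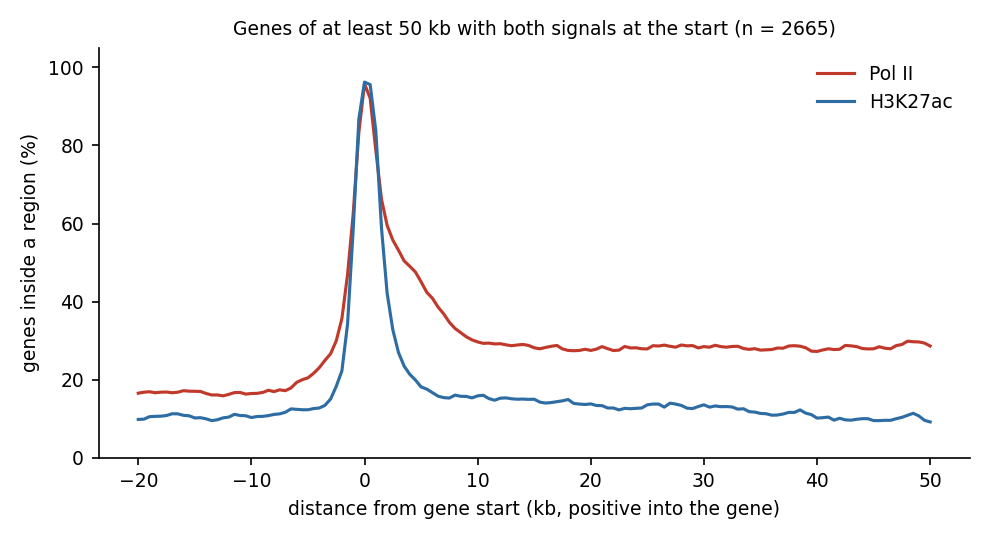
Percentage of 2665 genes of at least 50 kb, with both signals at the start, whose sequence lies inside a Pol II (red) or H3K27ac (blue) region at each distance from the start in kb. Both are above 95% at the start; at 5 kb into the gene 45.1% are inside Pol II and 18.2% inside H3K27ac regions, and at 20 kb 27.5% and 13.8%.

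In genes of at least 50 kb the signals parted within a few kb of the start. At the start 95.8% of 2665 such genes were inside a Pol II region and 96.2% inside an H3K27ac region. At 2 kb into the gene the shares were 59.5% and 42.1%, at 5 kb 45.1% and 18.2%, and at 20 kb 27.5% and 13.8%. On the other side, 2 kb before the start, they were 35.7% and 22.3%.

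The overlap in resting WT cells was set against that in untreated KO cells and in WT cells after LPS. In WT at 0 h 66.8%, 67.4% and 69.6% of a library's H3K27ac regions met Pol II. After 1 h of LPS the shares were 55.1%, 54.7% and 53.5%, a difference of 13.5 percentage points with no overlap (exact permutation p = 0.1, adjusted p = 0.115), while the number of Pol II regions in at least 2 libraries was 27773 instead of 41591. After 18 h they were 72.4%, 69.7% and 66.4%, which overlaps the resting values (p = 0.6 by the exact test), and in KO at 0 h 65.5%, 64.7% and 63.5%, a difference of 3.34 points in which every KO library lay below every WT library (exact permutation p = 0.1, adjusted p = 0.115). These KO libraries were also deeper, with 35, 38.52 and 38.83 M tags against 22.66, 23.14 and 21.38 M in WT at 0 h. Within each group the H3K27ac library with the fewest tags had the highest share, as after 18 h (15.04, 16.6 and 31.15 M). The libraries after 1 h had fewer tags than WT at 0 h (13.51, 14.03 and 20.88 M) and lower shares. The part of depth in these differences was not tested. Of Pol II regions, 47.3% ± 0.58 met H3K27ac in WT at 0 h, 49.3% ± 1.75 in KO at 0 h, 51.2% ± 1.58 after 1 h and 48.9% ± 0.71 after 18 h (SD, n = 3 each). The differences in the Pol II share against KO and against 1 h, and that in the H3K27ac share against KO, turned with regions of at least 20 tags per kb. Without input regions the 3 differences in the Pol II share (against KO, 1 h and 18 h) and that in the H3K27ac share against 18 h turned. The 1 h difference in the H3K27ac share kept its direction under each of the settings tried.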

How the data were processed

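Reads had been trimmed with Skewer and aligned to mm10 with HISAT2 2.1.0 (submitters' processing notes), duplicates removed, and regions called per library with HOMER, with no input as control. HOMER searched windows of 500 bp, kept those at a Poisson p under 0.001 relative to the average over the genome, and joined neighbours closer than 1000 bp (per the file headers). What the authors deposited as signal is the tag number of each region scaled to 10 M tags per library. Only this rounded value was used, so no count test was possible, and a region that was not listed was set to 0, which does not mean that no tag was there. The deposited lists of 14 libraries (KO after LPS and inputs of those groups) were not used here.

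The members, gene lists and tests were chosen with earlier results of these data known. Within each antibody, regions that shared 1 bp were merged over its 3 libraries and kept when at least 2 contributed. Genes came from GENCODE vM21 on GRCm38 (21884 coding genes, 54 entries with duplicate symbols left out), with the outermost annotated start of each. A start value is the signal within 2500 bp, with a region that lay partly inside shared out by its overlap. Values were compared as log2(tags + 10) with limma 3.58.1 in R 4.3.3, which understates changes of low values, with 2 group means, an intensity trend and median-centred libraries, and a gene was called past a log2 difference of 1 in size with a Benjamini-Hochberg p under 0.05 over 11010 genes. The fit was tested on simulated data. Libraries were compared by exact permutation over 20 relabelings. The labels name no batch. Tables were handled in Python 3.11.15 with pandas 2.3.3 and numpy 2.4.6, and plots drawn with matplotlib 3.10.9. Printed miRNAs and gene starts are from RefSeq (GRCm38.p6), where 8654 of the 11010 genes tested had a promoter entry.

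Named were all genes of the lists, the 10 genes highest in Pol II density and in H3K27ac at the start, the 10 called genes with the largest difference in each direction and no overlap between libraries, the 10 starts highest in 1 signal without the other, and the 10 regions of each antibody that were widest, strongest in intergenic space or strongest without the other antibody. Some genes that met these rules are not reported here. Ms4a1, the Neat1 region and the Mir142 locus lie outside that rule and were chosen after their values were seen. The alternatives tried were other pseudocounts, windows, promoter definitions, overlap rules and normalizations, a minimum density, removal of input regions and of single libraries, and a replicate block.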

Additional observations from a re-analysis of the deposited data

How the results depend on the processing

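Density, input and scaling moved the results most. The density and input settings also remove regions or genes, which scaling does not. With regions of at least 20 tags per kb, the differences between the antibodies turned for regions per library (-14064), median width (1160 bp), promoter share (24.4 points), distal share (-24.4) and overlap (39.7), and the regions kept were 13395 for Pol II (95.8% shared, 58.2% promoter) and 27237 for H3K27ac (55.3%, 32.9%). Without regions that overlap the input the promoter share of tags turned (-7.82), and 26618 Pol II regions (35.1% shared, 13.9% promoter) and 20745 H3K27ac regions (45.8%, 19.8%) were left. The promoter shares were 24.3% and 25.5% within 2500 bp of a start, 38.1% and 36.3% with all annotated transcripts, 28.3% and 25.4% with regions found in all 3 libraries (69.0% of Pol II shared), and 16.1% and 22.1% with bases inside at least 2 libraries (46.6% of Pol II shared). When 50% of a region had to be covered, 45.9% of Pol II and 58.7% of H3K27ac regions were shared. Against other conditions, the resting WT difference in the Pol II share turned to 1.36 (KO) and 2.03 (1 h) points and that in the H3K27ac share to -4.06 (KO) at 20 tags per kb, and without input regions to 1.85 (KO), 6.28 (1 h) and 9.62 (18 h) for Pol II and 8.24 (18 h) for H3K27ac. At gene starts, 642 genes were higher and 394 lower with a pseudocount of 50, 893 and 267 with a window of 500 bp, 318 and 4486 without centring, 693 and 538 without close neighbours, and 205 and 199 of 3904 tested without input regions. Of the called genes that could be tested, 12 of 1477 changed sign with the window of 500 bp, 21 of 499 without input regions and 4 of 1709 with quantile normalization. Of the genes named, quantile normalization turned Cd68 (-1.12), Mrps18b (-1.21), Ppp1r10 (-1.35), Tnrc18 (-1.57) and Zfp36l2 (-0.48). In lone genes of at least 10000 bp the body reached 34.7% of the start for Pol II and 13.8% for H3K27ac. The cause of these shifts was not tested.

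Leaving out single libraries gave 1003 to 1093 genes higher and 631 to 678 lower, 36476 to 41591 Pol II regions (57.9% to 64.1% shared, 21.7% to 24.5% promoter) and 38619 to 41530 H3K27ac regions (64.0% to 71.9%, 23.2% to 24.6%). The differences between antibodies ranged from 12636 to 13741 regions, -563 to -543 bp in width, 73.7 to 81.8 Mb covered, -17.2 to -12.3 points of tags in regions, -41.4 to -38.3 tags per kb, -6.00 to -5.55 and 5.55 to 6.00 points of promoter and distal regions, 19.3 to 19.9 points of promoter tags and -22.4 to -16.1 points of overlap. Those between conditions ranged from 2.49 to 3.91 (KO), 12.6 to 14.1 (1 h) and -3.12 to -0.12 (18 h) points for H3K27ac, and from -2.84 to -1.09, -4.73 to -3.26 and -1.89 to -1.18 for Pol II. The body reached 48.1% to 49.2% (Pol II) and 18.5% to 18.9% (H3K27ac) of the start. Whether the replicate numbers pair the libraries is not known. Deviations of same-numbered libraries correlated at 0.026, 0.011 and 0.011, which cannot settle it, because the libraries compared are of different antibodies. With a replicate block 1053 genes were higher and 656 lower, of which 1052 and 656 were also called without it, and sign flips within numbers left the library differences (13321 regions, -551 bp, 77.9 Mb, -15.5 points, -39.8 tags per kb, -5.84, 5.84, 19.6 and -20.6 points) at the smallest p they can give, 0.25. Starts within 500 bp of a RefSeq start (754 higher, 461 lower), and single libraries left out along genes and between conditions, were chosen after seeing the data. Regions hold averages, so the shape of a signal inside a region is lost, and a signal under the calling threshold is listed as 0.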
